A study of Microcebus murinus with 18 samples.

Results

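The amyloid precursor family and its secretases, 9 genes in all, were described in the temporal cortex of the grey mouse lemur, Microcebus murinus, a small primate. The 9 genes are the substrates APP, APLP1 and APLP2, the alpha-secretase gene ADAM10, the beta-secretase gene BACE1 with its homologue BACE2, and the gamma-secretase genes PSEN2, NCSTN and APH1A. Members were all probe sets of the human HG-U133 Plus 2.0 array annotated to one of these symbols and to no other, which gave 30 of the 54613 probe sets that are not array controls. The rule uses no measured value. The study compared healthy aging and amyloid pathology, and used 1 array for each of 18 animals: 6 young adults (2 of them male), 10 old animals in good health (3 of them male) and 2 old "AD-like" females. No animal was treated, and the AD-like animals were those whose brains held amyloid plaques and cortical atrophy. With 2 AD-like animals, both female, this group cannot show a sex difference and its spread is poorly known. Animals are named here by group, sex and label number, as in old F4.

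APP is a membrane protein that is cut in sequence by proteases called secretases. Alpha-secretase cuts within the amyloid peptide region and prevents the peptide from forming, whereas beta-secretase and then gamma-secretase release it. APLP1 and APLP2 are relatives of APP that are cut by the same enzymes but lack the amyloid peptide region, and the amyloid peptide is the main constituent of the plaques of Alzheimer's disease.

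The values are linear signals in arbitrary units, scaled by the authors so that the trimmed mean of each array is 100. Because human probes met lemur RNA, a signal depends on how well a probe matches the lemur transcript, so each probe set was compared only with itself across animals. The median signal of an array lay between 30.7 and 54.4, and detection calls were not used here. Probe sets were ranked by their third-highest signal over the animals and the top 15000 were tested, which held 20 of the 30 member probe sets. All 3 probe sets were kept for APP, the only one for APLP1, 6 of 8 for APLP2, all 4 for BACE1, 1 of 3 for BACE2, 2 of 3 for ADAM10, 1 of 3 for PSEN2, 2 of 3 for APH1A and 0 of 2 for NCSTN. Differences are on the log2(signal + 16) scale, which understates the change of dim probe sets, and were tested with limma on all 18 arrays with Benjamini-Hochberg adjustment over the 15000 probe sets. The p-values measure the spread between animals.

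On 4 arrays, those of AD-like F2, young adult M2 and old M1 and M2, the poly-A control RNA that is added during labelling gave a signal no higher than 19.0, whereas it reached 334 or more on each of the remaining 14. They are called arrays without poly-A controls, and 3 of the 4 are from males. GAPDH has probe sets near both ends of its transcript, and the log2 ratio of the 3' signal over the 5' signal, which is higher when the RNA is shorter, averaged 0.31 in young adults, with an SD of 0.20 over 6 animals. It averaged 0.59 in old animals (SD 0.53, n = 10; p = 0.235 against young adults by a two-sided exact permutation test) and 0.47 in AD-like animals (SD 0.20). Signals of all 10 neuronal markers were kept, and their sum lay between 17809 and 64325 in young adult, 37321 and 63617 in old and 25421 and 56541 in AD-like animals. Neither GFAP nor S100B of astrocytes was kept, and of 7 microglial markers P2RY12 alone was kept. None of the markers of neurons, oligodendrocytes, astrocytes, microglia, endothelium, blood or choroid plexus differed between groups at an unadjusted p under 0.05 in limma.

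In healthy aging no gene of this group passed the test. Of the 20 member probe sets 0 had an unadjusted p under 0.05 in limma between old and young adult animals, where 5.89% of all tested probe sets did, and 0 passed after adjustment (smallest adjusted p = 0.855). The signs were mixed, with 11 higher and 9 lower in old animals and log2 differences from -0.55 to 0.55. Their median was 0.06, beside 0.03 over all tested probe sets. The largest differences in both directions belonged to APP, on the 214953_s_at probe set, and APH1A, on the 1554417_s_at probe set.

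Between AD-like and old animals 1 of the 20 probe sets, 222463_s_at of BACE1, had an unadjusted p under 0.05 in limma, where 4.88% of all tested probe sets did (3.6% lower), and 0 passed after adjustment (smallest adjusted p = 0.725), against 0.00667% of all. Of the 20, 10 were higher and 10 lower, with a median log2 difference of 0.02, beside -0.02 over all tested probe sets. Between AD-like and young adult animals the same BACE1 probe set was the only one with an unadjusted p under 0.05, against 4.34% of all tested probe sets, with 0 after adjustment. These comparisons share the AD-like arrays. The signals of AD-like and young adult animals did not overlap on 2 of the 20 probe sets, APLP2 208702_x_at and BACE1 222462_s_at, against 5.59% of all tested probe sets. There were 0 such probe sets between AD-like and old animals, against 3.05%, and 0 between old and young adult animals, against 0.0333%. Across the 3 groups limma's F test gave BACE1 222463_s_at alone (unadjusted p = 0.0137, adjusted p = 0.938), against 5.06% of all tested probe sets.

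**Figure D1:**
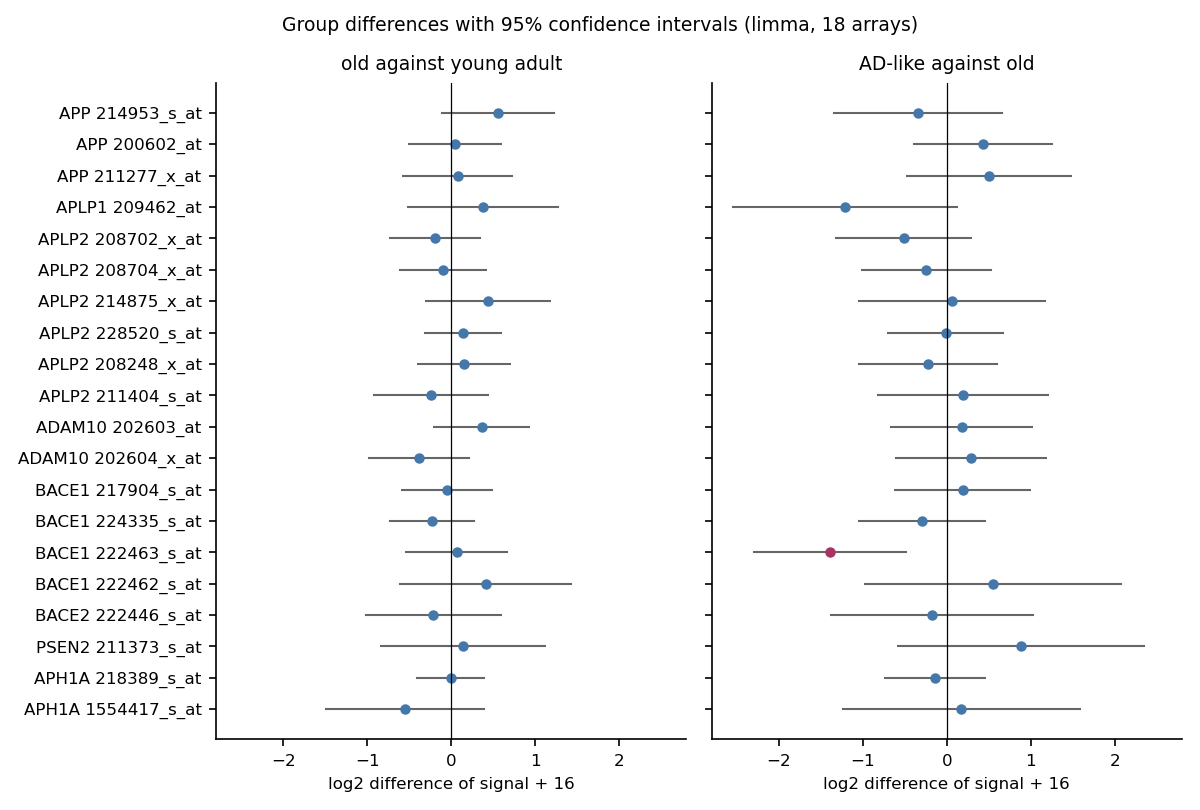
Log2 differences (x axis, log2 of signal + 16) of the 20 tested member probe sets (y axis) between old and young adult animals and between AD-like and old animals, with 95% confidence intervals from limma over 18 arrays. Red marks an unadjusted p under 0.05, reached by BACE1 222463_s_at in AD-like against old animals, and the intervals of the other probe sets include 0.

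APP, the precursor of the amyloid peptide, was read best by 214953_s_at. Its signal in young adults ranged from 3421 in M1 through a median of 8328 to 13811 in F1, and in old animals from 6321 in M2 through a median of 12477 to 16991 in F1. The AD-like animals gave 14857 (F1) and 5415 (F2). The groups overlapped, though 8 of the 10 old animals lay above the young adult median and 4 above every young adult. Young adult and old means were 8687 ± 4132 (SD, n = 6) and 11953 ± 3477 (SD, n = 10), which gave a log2 difference of 0.55 with a standard error of 0.32 and a 95% interval from -0.12 to 1.22 (limma, unadjusted p = 0.0999, adjusted p = 0.855).

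The young adult animals were widely spread on this APP probe set, and so the size of the difference depended on who was included. Within the 14 arrays with poly-A controls the log2 difference of APP 214953_s_at was 0.76 (limma, unadjusted p = 0.0274, adjusted p = 0.698), and with the beta-actin end ratio as a covariate it was 0.73 (unadjusted p = 0.0206, adjusted p = 0.414). Without young adult F1 it was 0.72 and without young adult F2 0.70, with unadjusted p-values of 0.0424 and 0.0494. These 4 fits were the only ones of 34 alternatives with an unadjusted p under 0.05 in limma. Over the 34 alternatives the difference stayed between 0.23 and 0.76 and the adjusted p between 0.414 and 1.00. The lowest APP signals were those of young adult M1 (3421), young adult F4 (5238) and AD-like F2 (5415). The summed neuronal markers were lowest in young adult M1 (17809), AD-like F2 (25421) and young adult M2 (29748), and the part of this in the APP values was not tested. In such tissue RNA, fewer cells of a type and less RNA per cell cannot be told apart.

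The other APP probe sets did not show the same pattern. On 200602_at the log2 difference between old and young adult animals was 0.05 (95% interval from -0.50 to 0.60), and on 211277_x_at it was 0.07 (from -0.58 to 0.73). In the comparison of AD-like with old animals 214953_s_at gave -0.35, whereas 200602_at gave 0.43 and 211277_x_at gave 0.50, each with an interval that includes 0. On APP 211277_x_at the difference between old and young adult animals was -0.36 in females and 0.98 in males. The male value rested on young adult M1 (31.3), since the other young adult male gave 201 and the old males 111 to 252. Without young adult M1 the difference in males was -0.12 and the sex difference 0.24 (limma, unadjusted p = 0.665), and without young adult M2 the sex difference was 2.44 (unadjusted p = 0.000340, adjusted p = 0.142). Over all animals the sex difference of 1.34 had an unadjusted p of 0.0398 and an adjusted p of 0.998 in limma's interaction test, where it was the only one of 20 member probe sets, against 4.6% of all tested probe sets.

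**Figure D2:**
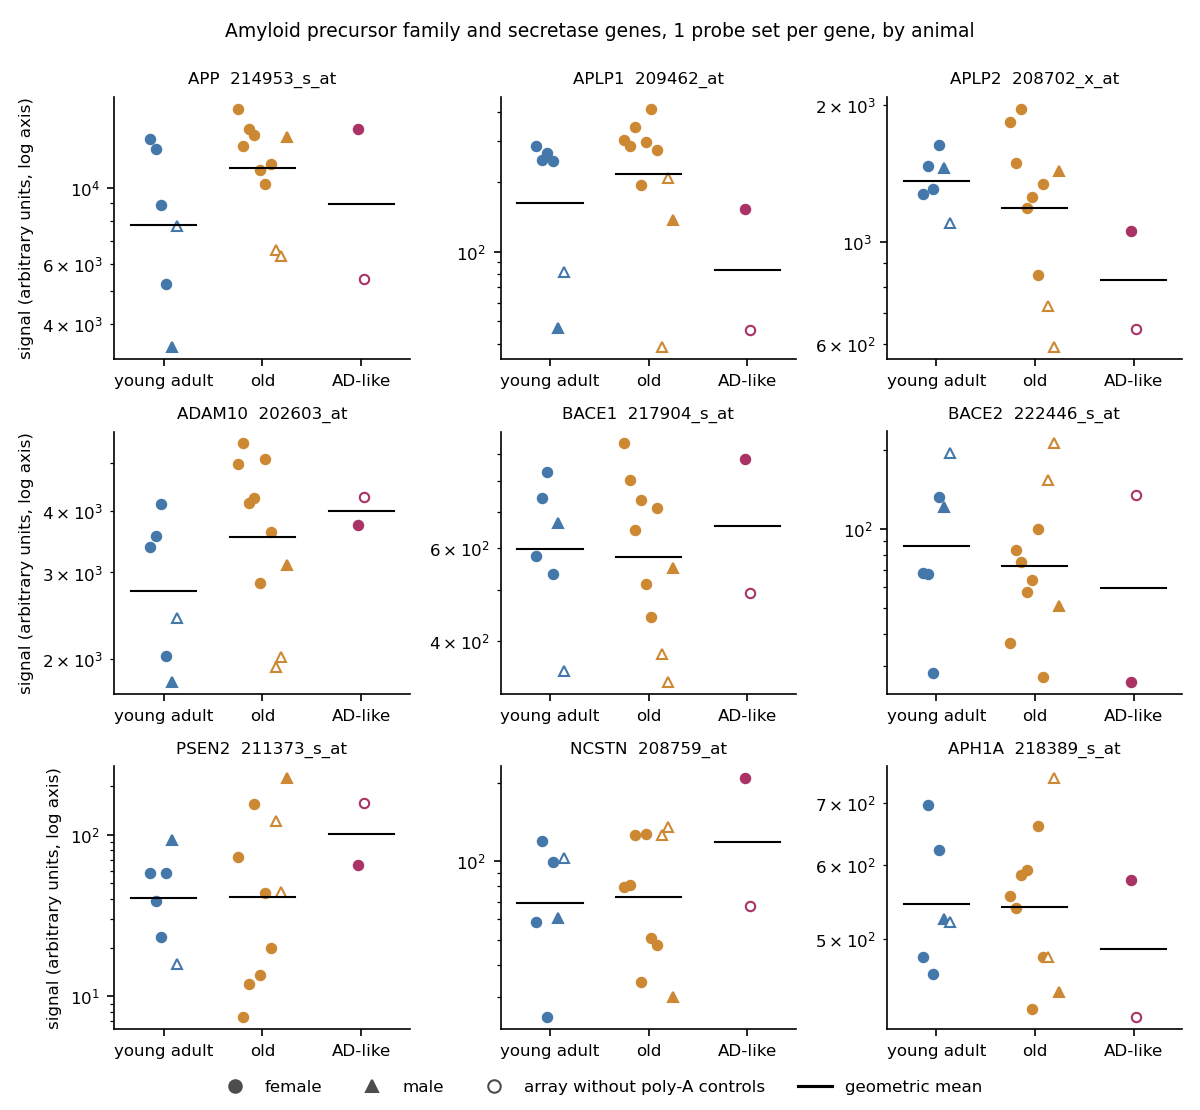
Signals (y axes, arbitrary units, log axes) of 1 probe set for each of the 9 genes in young adult, old and AD-like animals (x axes). Each point is 1 animal, circles are females, triangles males, open symbols arrays without poly-A controls, and bars are geometric means. For APLP1 the 5 males lie between 38.6 and 208 and the 11 females without pathology between 194 and 415.

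APLP1, a relative of APP found mainly in neurons, was read by 209462_at alone. In young adults its signal ranged from 46.6 in M1 through a median of 248 to 287 in F1, and in old animals from 38.6 in M1 through a median of 281 to 415 in F6. The AD-like animals gave 153 (F1) and 45.6 (F2). The signals of young adult M1, old M1 and AD-like F2 were below the median signal of their own array, so the 3 lowest values are at the dim end of the measurement.

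The log2 difference of APLP1 was 0.38 between old and young adult animals (95% interval from -0.51 to 1.27, limma adjusted p = 0.915) and -1.21 between AD-like and old animals (standard error 0.64, interval from -2.55 to 0.12, unadjusted p = 0.0733, adjusted p = 0.970). Sex moved with this result. Old females ranged from 194 to 415 and young adult females from 246 to 287, and both AD-like females lay below all 11 of them. No share of all tested probe sets with such a separation within females is given here. Over all animals the APLP1 signals of AD-like and old animals overlapped. Within females the AD-like difference was -1.61 against old (limma, unadjusted p = 0.000394, adjusted p = 0.151) and -1.45 against young adult animals (unadjusted p = 0.00186, adjusted p = 0.371). In each of these comparisons within females 3 of the 20 members had an unadjusted p under 0.05, namely APLP1, APLP2 208702_x_at and BACE1 222463_s_at, against 12% and 8.31% of all tested probe sets.

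AD-like F2, whose array was without poly-A controls, carried much of the APLP1 difference. With AD-like F2 left out the difference within females was -0.89 (limma, unadjusted p = 0.0346, adjusted p = 0.812), and with AD-like F1 left out it was -2.34 (adjusted p = 0.0140). Over all animals it was -0.48 without AD-like F2. On the 4 arrays without poly-A controls the APLP1 signals were 38.6 in old M1, 45.6 in AD-like F2, 81.5 in young adult M2 and 208 in old M2. Over 34 alternatives the difference between AD-like and old animals stayed between -2.34 and -0.48, and the adjusted p between 0.0140 and 1.00.

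APLP2, the relative of APP found in most tissues, was read best by 208702_x_at. Young adults ranged from 1103 in M2 through a median of 1379 to 1636 in F4, old animals from 589 in M2 through a median of 1300 to 1963 in F3, and the AD-like animals gave 1058 (F1) and 647 (F2). Both AD-like animals thus lay below every young adult, while 3 old animals were lower than AD-like F1. The log2 difference was -0.20 between old and young adult animals (95% interval from -0.73 to 0.34), -0.51 between AD-like and old animals (from -1.32 to 0.29) and -0.71 between AD-like and young adult animals (from -1.55 to 0.14, limma adjusted p = 1.00). Within females the AD-like differences on APLP2 208702_x_at were -0.72 against old and -0.76 against young adult animals, with unadjusted p-values of 0.0460 and 0.0496 and adjusted p-values of 0.407 and 0.598.

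The 5 other tested probe sets of APLP2 had log2 differences between AD-like and old animals from -0.24 on 208704_x_at to 0.19 on 211404_s_at. The remaining 208703_s_at and 208701_at did not pass the signal filter, with signals from 7.71 to 263 and from 7.68 to 124. When every probe set was tested regardless of signal, 208701_at gave a log2 difference of 1.21 between AD-like and old animals (limma, unadjusted p = 0.0493, adjusted p = 0.869), opposite in sign to 208702_x_at.

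ADAM10, the main alpha-secretase of neurons, was read best by 202603_at. Young adults ranged from 1793 in M1 through a median of 2898 to 4137 in F3, and old animals from 1926 in M1 through a median of 3891 to 5490 in F2. The AD-like animals gave 3751 (F1) and 4276 (F2). Of the old animals 5 were above every young adult, namely F1, F2, F3, F4 and F6, while old M1 and old M2 were near the lowest young adults. The log2 difference was 0.36 between old and young adult animals (95% interval from -0.20 to 0.92, limma adjusted p = 0.886) and 0.18 between AD-like and old animals (from -0.66 to 1.02).

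On the second tested probe set of ADAM10, 202604_x_at, the sign was opposite, with a log2 difference of -0.39 between old and young adult animals (95% interval from -0.98 to 0.21). Without young adult M1, the lowest young adult on this probe set (101), it was -0.61 (limma, unadjusted p = 0.0367, adjusted p = 1.00). The third probe set, 214895_s_at, was not kept and had signals from 8.34 to 105.

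BACE1, the main beta-secretase of the brain, had 4 tested probe sets. On 217904_s_at young adults ranged from 352 in M2 through a median of 623 to 834 in F3, old animals from 334 in M2 through a median of 598 to 944 in F1, and the AD-like animals gave 884 (F1) and 493.2 (F2). AD-like F1 lay above every young adult and within the old animals, and AD-like F2 lay within both groups. The log2 differences were -0.05 between old and young adult animals (95% interval from -0.58 to 0.49) and 0.19 between AD-like and old animals (from -0.61 to 0.99). The 4 lowest signals on this BACE1 probe set were from old M2, young adult M2, old M1 and old F6.

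BACE1 222463_s_at was the member with the smallest p. Young adults ranged from 128 in F3 through a median of 182 to 231 in F1, and old animals from 124 in F4 through a median of 188 to 321 in F3. The AD-like animals gave 161 (F1) and 19.2 (F2). AD-like F1 lay within both other groups, and AD-like F2 lay below all animals and below the median signal of its own array, 53.0. The log2 difference of BACE1 222463_s_at was -1.39 between AD-like and old animals, with a standard error of 0.43 and a 95% interval from -2.29 to -0.49 (limma, unadjusted p = 0.00430, adjusted p = 0.725), and -1.32 between AD-like and young adult animals (unadjusted p = 0.00871, adjusted p = 0.953).

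That difference on BACE1 222463_s_at rested on 1 animal. Without AD-like F2 it was -0.22 (limma, unadjusted p = 0.629), over the 14 arrays that had poly-A controls -0.14, and without AD-like F1 it was -2.56 (adjusted p = 0.0364). On the other arrays without poly-A controls the signal was 181 in young adult M2, 242 in old M1 and 257 in old M2. AD-like F2 is the only AD-like animal and the only female among these arrays, and the part of the array set in its signal was not tested. By the methods' t-test on linear signals the unadjusted p was 0.0626. Over 33 alternatives in limma the difference stayed between -2.56 and -0.14 and the adjusted p between 0.0238 and 1.00.

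The other BACE1 probe sets gave no low signal in AD-like F2 of this size. On 224335_s_at AD-like F2 (178) was below every young adult (265 to 428) and above old F4 (141). On 222462_s_at both AD-like animals (197 and 191.2) lay just above the highest young adult (190.8) and amid the old animals (23.8 to 410). The log2 differences between AD-like and old animals were -0.30 on 224335_s_at (95% interval from -1.05 to 0.45) and 0.55 on 222462_s_at (from -0.98 to 2.08).

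**Figure D3:**
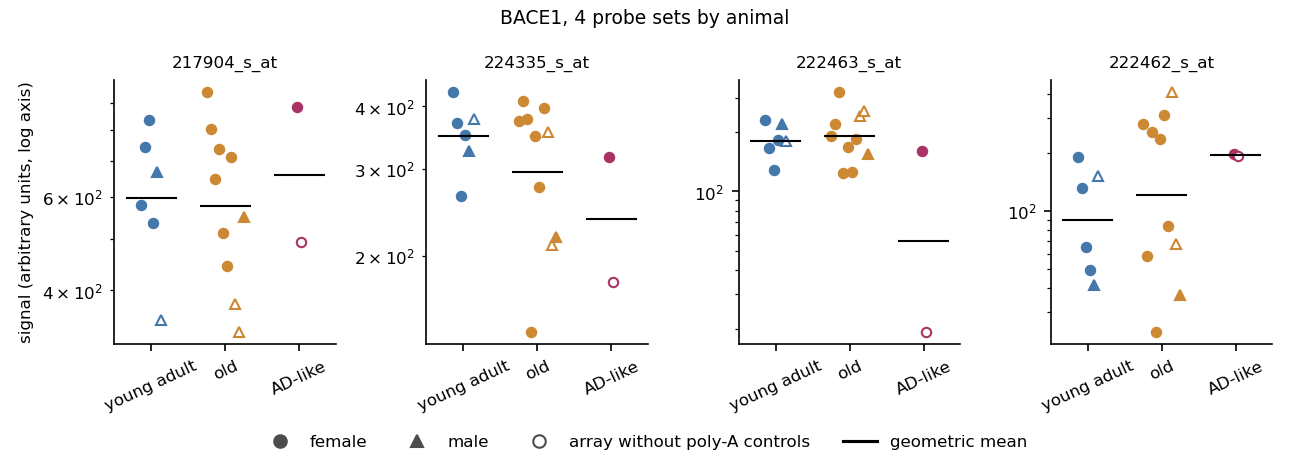
Signals (y axes, arbitrary units, log axes) of the 4 BACE1 probe sets in young adult, old and AD-like animals (x axes), 1 point per animal, with circles for females, triangles for males, open symbols for arrays without poly-A controls and bars for geometric means. On 222463_s_at AD-like F2 lies at 19.2 while the other 17 animals lie between 124 and 321.

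BACE2, a homologue of BACE1 that is low in neurons, was dimmer. On 222446_s_at young adults ranged from 28.4 in F3 through a median of 94.7 to 195 in M2, old animals from 27.4 in F7 through a median of 69.7 to 212 in M2, and the AD-like animals gave 26.1 (F1) and 136 (F2). The 4 highest of the 18 signals were those of the 4 arrays without poly-A controls (136 to 212), and the other 14 lay between 26.1 and 132. The log2 difference was -0.21 between old and young adult animals (95% interval from -1.01 to 0.59) and -0.18 between AD-like and old animals (from -1.38 to 1.02). The probe sets 217867_x_at and 227051_at of BACE2 were not kept, with signals from 3.88 to 126 and from 1.07 to 45.5.

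Gamma-secretase is a complex of a presenilin, the catalytic subunit, with nicastrin, APH-1 and PEN-2. PSEN2, which encodes a presenilin, was dim on 211373_s_at, with 15.8 to 92.7 and a median of 48.2 in young adults and 7.44 to 224 and a median of 43.7 in old animals. The AD-like animals gave 65.4 (F1) and 158 (F2). The old animals covered both other groups. The log2 difference of PSEN2 was 0.14 between old and young adult animals (95% interval from -0.84 to 1.12) and 0.88 between AD-like and old animals (from -0.59 to 2.35, limma adjusted p = 0.970). On 204262_s_at, which was not kept though its mean signal was higher (99.3 against 68.0), AD-like F2 (12.6) was again below all other animals (48.5 to 177). On the third, 204261_s_at, signals ranged from 8.47 to 121. When every probe set was tested, 204262_s_at gave -0.91 between AD-like and old animals (limma, unadjusted p = 0.0628, adjusted p = 0.885), opposite in sign to 211373_s_at. It gave -0.97 between AD-like and young adult animals (unadjusted p = 0.0604, adjusted p = 0.996). The third probe set gave 0.15 and -0.22 in these comparisons.

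NCSTN, which encodes nicastrin, the subunit that receives substrates, had no probe set that passed the signal filter. On 208759_at signals ranged from 25.2 to 120 in young adult and from 30.0 to 136 in old animals, and AD-like F1 (208) exceeded all of them while AD-like F2 gave 67.6. When every probe set was tested, NCSTN 208759_at gave log2 differences of 0.07 between old and young adult animals and 0.59 between AD-like and old animals (limma, adjusted p = 0.994 and 0.953). On 237076_at no signal exceeded 99.6.

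APH1A, which encodes the scaffold subunit APH-1, was read best by 218389_s_at. Young adults ranged from 458 to 697 with a median of 524, old animals from 421 to 744 with a median of 548, and the AD-like animals gave 578 (F1) and 412 (F2). Old and young adult animals differed by a log2 of -0.01 with a 95% interval from -0.41 to 0.39, the narrowest interval of the 20. The AD-like to old difference was -0.15 (from -0.74 to 0.45).

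On the other tested probe set of APH1A, 1554417_s_at, signals were far more spread. Young adults ranged from 294 in F1 through a median of 480 to 747 in F3, and old animals from 55.7 in F6 through a median of 297 to 940 in F1. The AD-like animals gave 502 (F1) and 252 (F2). Old F6 (55.7) and old F4 (136) were lowest, and old F1 (940) and old F2 (831) highest. The log2 difference between old and young adult animals was -0.55 (95% interval from -1.49 to 0.39, limma adjusted p = 0.889).

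How closely probe sets of the same gene moved together across the 18 animals depended on the array scaling. As deposited, over the 26 pairs of tested probe sets of the same gene Pearson's r had a median of 0.005 and ranged from -0.329 to 0.585, with 13 pairs positive and 13 negative. After median centring of the arrays 22 pairs were positive and 4 negative, with a median r of 0.243, and after quantile normalization the median was 0.010. As deposited, none of the 26 passed a permutation test after Benjamini-Hochberg adjustment. The 2 probe sets of ADAM10 had an r of 0.302 and those of APH1A an r of -0.095, the 3 pairs of APP lay between -0.188 and 0.370, and the highest of all was between BACE1 224335_s_at and 222463_s_at.

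Some of these probe sets followed the end ratio of GAPDH across animals. Of 20 relations 4 passed by Pearson's r and 3 by Spearman's rho after adjustment. No share over all tested probe sets is given for this relation, so these counts cannot be set against the array as a whole. APH1A 1554417_s_at had an r of -0.783 and a rho of -0.666 (permutation tests, p = 0.00022 and 0.0031, adjusted p = 0.0044 and 0.031), an r of -0.611 without the 2 animals farthest from the median ratio, and -0.874 over the 14 arrays that had poly-A controls. The 2 lowest signals of this probe set were in old F4 and old F6, which had the highest GAPDH ratios, 1.56 and 1.22. APH1A 218389_s_at had an r of 0.126 (permutation test, p = 0.62).

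The ADAM10 probe sets were divided in the same way. ADAM10 202604_x_at had an r of -0.727 and a rho of -0.752 with the GAPDH ratio (permutation tests, p = 0.00054 and 0.00053, adjusted p = 0.0054 and 0.011), -0.689 without the 2 farthest animals and -0.772 within the 14 arrays. ADAM10 202603_at had an r of 0.071 (permutation test, p = 0.78). BACE1 224335_s_at had an r of -0.707 and a rho of -0.643 (permutation tests, p = 0.0019 and 0.0052, adjusted p = 0.013 and 0.035), with -0.552 without the 2 farthest animals and -0.745 within the 14 arrays. APLP2 211404_s_at passed by r (-0.670, permutation test, p = 0.0059, adjusted p = 0.029) but not by rho (-0.424, permutation test, p = 0.080, adjusted p = 0.27), with -0.448 without the 2 farthest animals and -0.662 within the 14 arrays. The probe sets that followed the ratio include those on which the old animals had less ADAM10 and APH1A signal than young adults, and the part of RNA length in those differences was not tested.

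**Figure D4:**
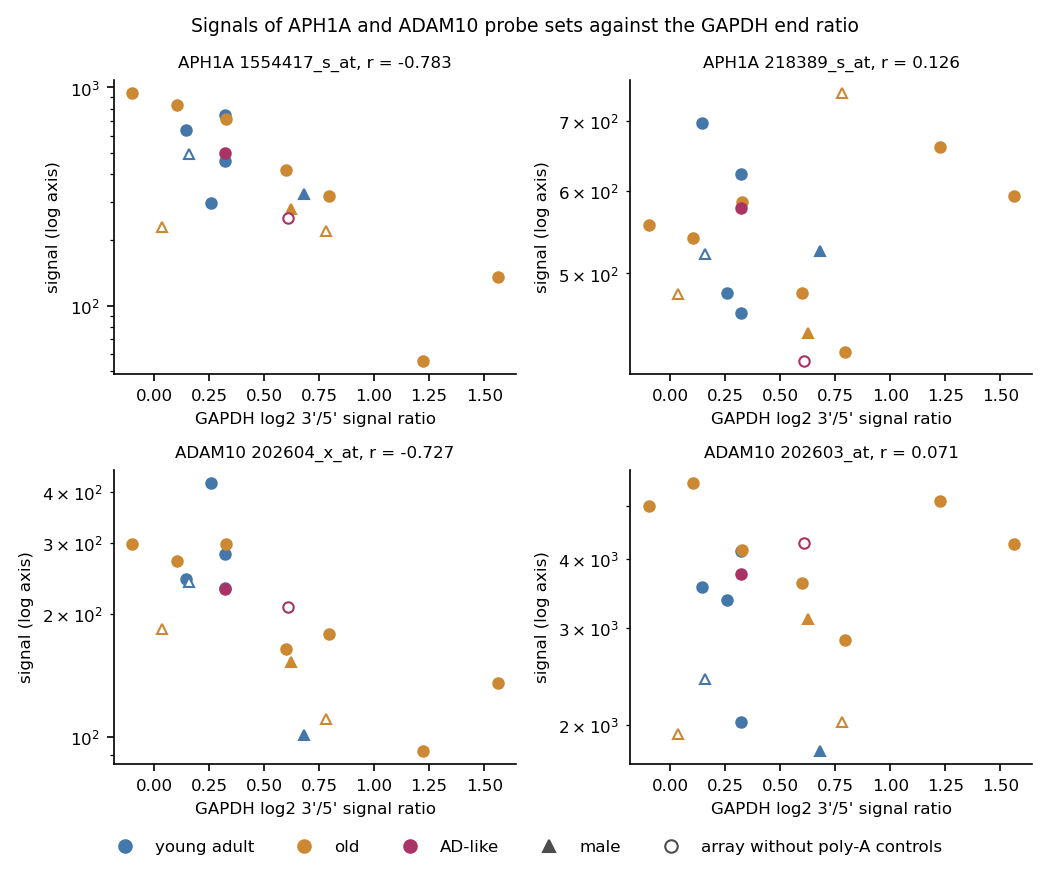
Signals (y axes, arbitrary units, log axes) of 2 probe sets each of APH1A and ADAM10 against the log2 of the GAPDH 3' signal over its 5' signal (x axes), 1 point per animal, coloured by group, with triangles for males and open symbols for arrays without poly-A controls. APH1A 1554417_s_at (r = -0.783) and ADAM10 202604_x_at (r = -0.727) are lower where the ratio is higher, whereas r is 0.126 for APH1A 218389_s_at and 0.071 for ADAM10 202603_at.

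Between genes, the signals of the 8 genes with a tested probe set gave 28 pairs, each gene being read by its brightest tested probe set. After adjustment 5 pairs passed by Pearson's r and 2 by Spearman's rho. No share over pairs of other genes is given, so these counts cannot be set against the array as a whole. BACE1 and BACE2 were opposed, with an r of -0.823 and a rho of -0.787 (permutation tests, p = 4e-05 and 0.00021, adjusted p = 0.0011 and 0.0059), -0.722 without the 2 farthest animals, -0.745 within the 13 females and -0.601 over the 14 arrays that had poly-A controls. APP and BACE2 were also opposed, with an r of -0.680 and a rho of -0.699 (permutation tests, p = 0.0019 and 0.0018, adjusted p = 0.018 and 0.025), -0.707 without the 2 farthest animals and -0.574 within the 14 arrays. These negative relations kept their sign when the arrays were quantile normalized, at -0.727 for BACE1 with BACE2 and -0.325 for APP with BACE2, and when they were median centred, at -0.682 and -0.515. BACE2 was kept only through its high signals on arrays without poly-A controls, so its relations over all animals are not independent of the filter.

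APP and ADAM10 were positively related in the deposited signals, with an r of 0.698 (permutation test, p = 0.0013, adjusted p = 0.018), a rho of 0.548 (permutation test, p = 0.020, adjusted p = 0.093), 0.522 without the 2 farthest animals and 0.770 within the 14 arrays. Under quantile normalization, however, the r of APP and ADAM10 was -0.076 and that of APP and APLP1, which was 0.639 as deposited (permutation test, p = 0.0047, adjusted p = 0.026, with a rho of 0.463, p = 0.054 and adjusted p = 0.17), was 0.001. After median centring they were 0.808 for APP with ADAM10 and 0.739 for APP with APLP1. The relation of APP and APLP1 as deposited was 0.643 without the 2 farthest animals and 0.559 within the 14 arrays. APLP2 and BACE1 had an r of 0.658 (permutation test, p = 0.0026, adjusted p = 0.018) and a rho of 0.575 (permutation test, p = 0.014, adjusted p = 0.078), 0.552 without the 2 farthest animals, 0.310 within the 14 arrays, 0.531 after quantile normalization and 0.786 after median centring.

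**Figure D5:**
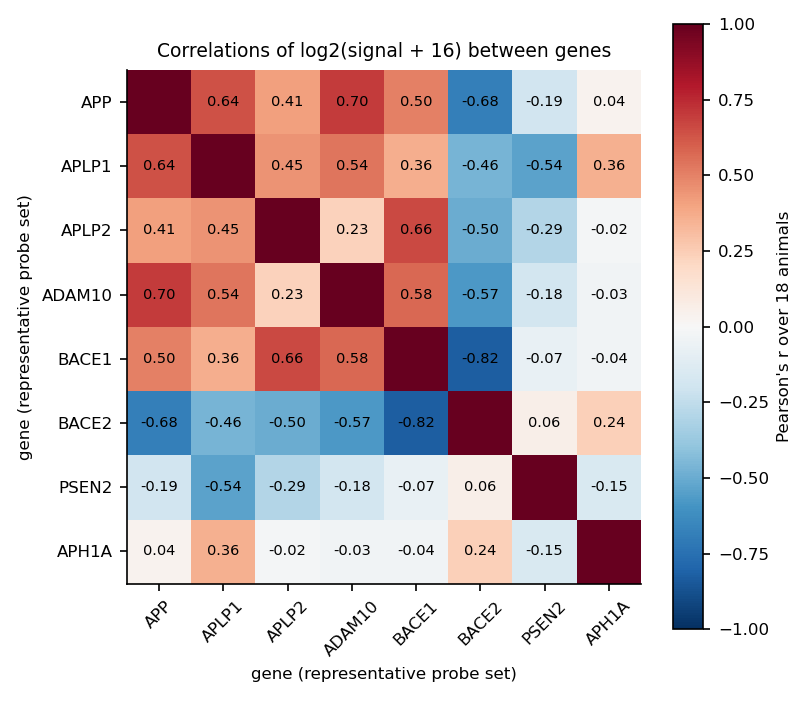
Pearson's r of log2(signal + 16) over 18 animals between the representative probe sets of 8 genes (both axes), with red for positive and blue for negative values. The lowest value is BACE1 with BACE2 (-0.82) and the highest APP with ADAM10 (0.70).

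Ratios within an array were compared between animals as a description, with no test, and the level of a ratio of different probe sets has no meaning of its own. The log2 ratio of BACE1 to ADAM10, beta- to alpha-secretase, was -2.18 ± 0.47 (SD, n = 6) in young adult and -2.58 ± 0.34 (SD, n = 10) in old animals, and -2.07 and -3.08 in AD-like F1 and F2. AD-like F1 lay above all old animals (-3.47 to -2.30) and AD-like F2 within their range. The log2 ratio of APP to APLP2 was 2.50 ± 0.86 (SD, n = 6) in young adult and 3.25 ± 0.21 (SD, n = 10) in old animals, and 3.79 and 3.04 in the AD-like animals. Old animals lay within 2.91 to 3.57, while young adults spread from 1.23 in M1 to 3.42 in F1.

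Males and females were compared within groups after the sex pattern of APLP1 had been seen. Of the 20 probe sets 5 had an unadjusted p under 0.05 in limma, 4 lower and 1 higher in males, where 28.9% of all tested probe sets did (17.6% lower and 11.3% higher), and 2 passed after adjustment, where 10.2% of all did. These shares were close to those of all probe sets. APLP1 209462_at was lower in males, with 102 ± 70.8 (SD, n = 5) against 259 ± 90.4 (SD, n = 13) and a log2 difference of -1.53 (standard error 0.30, adjusted p = 0.0121). ADAM10 202603_at was also lower, with 2255 ± 532 (SD, n = 5) in males, 3969 ± 938 (SD, n = 13) in females and a log2 difference of -0.78 (standard error 0.22, adjusted p = 0.0330). The summed neuronal markers moved with sex too, from 17809 through a median of 37321 to 42712 in the 5 males and from 25421 through a median of 55555 to 64325 in the 13 females, of whom 11 lay above every male, and the part of this in the sex differences was not tested.

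Arrays without poly-A controls held 3 of the 5 males and 1 of the 13 females. With this set of arrays as a further term APLP1 differed by a log2 of -1.30 (limma, unadjusted p = 0.00343) and ADAM10 202603_at by -0.72 (unadjusted p = 0.0225), with 3 of 20 members at an unadjusted p under 0.05, against 15.5% of all tested probe sets, and 0 after adjustment, against 0.06%. Within the 14 arrays with poly-A controls, which hold 2 males, the differences were -1.57 for APLP1 (adjusted p = 0.0502) and -0.63 for ADAM10 (adjusted p = 0.332). On leaving out each animal in turn APLP1 passed the adjusted threshold in 18 of 18 fits and ADAM10 202603_at in 11 of 18. In these fits 0.467% (without old M2) to 16.5% (without old M3) of all tested probe sets passed it. BACE2 222446_s_at, APP 214953_s_at and BACE1 217904_s_at also had unadjusted p-values under 0.05 between the sexes in limma. Their differences of 0.93, -0.74 and -0.58 became 0.13, -0.43 and -0.12 with the poly-A term. BACE2 was kept only through high signals of males on arrays without poly-A controls, so its sex difference is not independent of the filter.

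Animals on the arrays without poly-A controls were themselves compared with the other 14 within groups. Of 20 members 6 had an unadjusted p under 0.05 in limma, 5 lower and 1 higher, against 32% of all tested probe sets (17% lower and 15.1% higher), and 4 passed after adjustment, against 15.3%. These 4 were APLP1 209462_at with a log2 difference of -1.30 (adjusted p = 0.0330), APLP2 208702_x_at with -0.80 (adjusted p = 0.0226), BACE1 217904_s_at with -0.85 (adjusted p = 0.0141) and BACE2 222446_s_at with 1.42 (adjusted p = 0.00633). The opposed genes BACE1 and BACE2 were both among these 4, with opposite signs. BACE2 222446_s_at was kept only through its high signals on these same arrays, so its difference here is not independent of the filter.

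The genes whose signals were most like those of a member over the 18 animals were listed as a description. APP 214953_s_at was closest to ZEB2 (r = 0.951), MBNL1 (0.941) and QKI (0.929). BACE1 217904_s_at was closest to MAT2A (0.867), RBPMS (0.865) and KMT2C (0.860), and ADAM10 202603_at to ANP32B (0.901), RAB10 (0.890) and ACTR3 (0.871). NCSTN 208759_at, which was not kept, was closest to LMCD1 (0.762), ATP6V0D1 (0.728) and DOCK6 (0.727).

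Other genes of the pathway were read from 6 lists of 111 genes in all, of which 104 were measured and 81 kept. In healthy aging limma gave an unadjusted p under 0.05 for 4 genes that were higher in old animals and 1 that was lower, or 6.17% against 5.89% of all tested probe sets (3.47% higher and 2.42% lower), and 0 passed after adjustment. Between AD-like and old animals 0 were higher and 4 lower, or 4.94% against 4.88% (1.28% higher and 3.6% lower), again with 0 after adjustment. Median log2 differences were 0.12 and -0.11, beside 0.03 and -0.02 over all tested probe sets. Between AD-like and young adult animals 0 were higher and 5 lower, or 6.17% against 4.34% (1.16% higher and 3.18% lower), with 0 after adjustment, and these were APBA1, APBB1, APBB2, THOP1 and NOTCH3.

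Of the APP adaptors and sorting receptors, 21 were kept. In old against young adult animals NAE1, which binds the APP tail, gave a log2 difference of 0.53 (limma, unadjusted p = 0.0210, adjusted p = 0.838) and SORL1, a sorting receptor that holds APP away from the secretases, gave 0.55 (unadjusted p = 0.0438, adjusted p = 0.838). SORL1 lay between 151 and 560 in young adult, 395 and 800 in old and 555 and 714 in AD-like animals. In AD-like against old animals APBA1, an adaptor of the APP tail, gave -0.85 (unadjusted p = 0.0227) and FLOT2, a lipid raft protein, gave -0.77 (unadjusted p = 0.0408).

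Of 15 listed genes of amyloid peptide degradation 8 were kept. Between old and young adult animals 1 of the 8 had a positive and 7 a negative difference, where 53.6% of all tested probe sets were positive. The median log2 difference of the 8 was -0.32, beside 0.03 over all tested probe sets, and 1 of them had an unadjusted p under 0.05 in limma. CST3, a protease inhibitor that binds the amyloid peptide, gave -0.60 (limma, unadjusted p = 0.0277, adjusted p = 0.838), and the protease CTSB gave -0.61 (unadjusted p = 0.161). Between AD-like and old animals the peptidase THOP1 gave -1.14 (unadjusted p = 0.00996, adjusted p = 0.839), with signals of 22.8 and 30.3 in the AD-like and from 50.7 to 162 in the old animals. Both AD-like signals of THOP1 were below the median signals of the AD-like arrays (44.3 and 53.0). Signals of AD-like and old animals did not overlap on 3.05% of all tested probe sets. IDE, the insulin-degrading enzyme, gave -0.66 (unadjusted p = 0.107).

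Of 22 kept genes for other substrates of these proteases NOTCH1 gave 0.74 between old and young adult animals (limma, unadjusted p = 0.0217, adjusted p = 0.838) and SEZ6, a BACE1 substrate, -0.48 (unadjusted p = 0.0501). NOTCH3 gave -1.09 between AD-like and old animals (unadjusted p = 0.00869, adjusted p = 0.839), with 75.0 and 101 in the AD-like and 125 to 333 in the old animals. As given above, 3.05% of all tested probe sets did not overlap between these groups. SCN2B, a sodium channel subunit cut by BACE1, gave 0.92 (unadjusted p = 0.130).

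Among 9 kept beta-secretase partners VPS26A, a retromer subunit, gave 0.61 between old and young adult animals (limma, unadjusted p = 0.0271, adjusted p = 0.838) and RTN1 gave 0.59 (unadjusted p = 0.126). GGA3, which sorts BACE1 to lysosomes, and PCSK1N gave -0.63 and -0.75 between AD-like and old animals (unadjusted p = 0.118 and 0.124). None of 8 other gamma-secretase genes and partners had an unadjusted p under 0.05 in limma, with PSENEN, which encodes PEN-2, at 0.40 and TMED10 at -0.45 between old and young adult animals, and TMEM59 at 0.51 and TMED10 at 0.53 between AD-like and old animals. None of 13 other sheddases and inhibitors did either, with MMP24 at 0.51 and TIMP1 at 0.39 in the first comparison and MMP24 at -0.70 and TIMP2 at -1.13 in the second.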

How the data were processed

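Temporal cortex RNA of 18 grey mouse lemurs was hybridized to human HG-U133 Plus 2.0 arrays, 1 array per animal. The authors deposited intensity signals on a linear scale, made with GCOS 1.2 and scaled to a trimmed mean of 100 per array. Groups were taken from the sample titles. Control probe sets (62) were left out, and the probe sets were ranked by their third-highest signal, of which the top 15000, with a value of at least 146.7, were kept.

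Log2(signal + 16) values were compared with limma 3.58.1 in R 4.3.3, in 1 model of the 3 groups over all 18 arrays, adjusted by Benjamini-Hochberg at a threshold of 0.05. The 2 AD-like animals were assumed to vary like the other groups. Each gene was represented by its brightest kept probe set, and every other member with an unadjusted p under 0.05 was described too. Of each pathway list the 2 genes with the smallest p in old against young adult and in AD-like against old animals were named. Correlations across animals used 100000 permutations, in Python 3.11.15 with scipy 1.17.1. The scripts were tested on simulated data.

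Alternatives were the offset (1 or 50), quantile normalization, median centring, no filter and a stricter filter (7500 probe sets), sex as a covariate, females only, the replicate block, poly-A sets, end ratios as covariates, array weights, the methods' t-test and leaving out each animal. The comparison of the sexes, females only without each AD-like animal, the sex by age test without each young adult male, and other scalings of the correlations were added after seeing the data. The members and lists were chosen with earlier results of these data known. No sequences of members were used here.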

Additional observations from a re-analysis of the deposited data

Results flagged for a closer look

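Of 20 sets of old or young adult signals tested for 1 animal far from the others, 1 stood out, and chance alone gives about 1 in 20. APLP1 209462_at in old M1 had a signal of 38.6, and its gap to the next old animal made up 0.499 of the range of the 10 old animals, with the test on log2 values. The array of old M1 was without poly-A controls, and the part of this in the low signal was not tested. Without old M1 the log2 difference of APLP1 between AD-like and old animals was -1.45 (limma, unadjusted p = 0.0139, adjusted p = 0.799).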

How the results depend on the processing

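Of the 20 member probe sets, 0 had an unadjusted p under 0.05 in limma for old against young adult animals. This was 1 within the 14 arrays with poly-A controls and 1 when the end ratio of beta-actin was a covariate (APP 214953_s_at in both), and 0 to 1 on leaving out each animal. The count of 1 for AD-like against old animals was 2 without a filter, 0 with the stricter filter, which drops BACE1 222463_s_at, 3 in females, 2 with sex as a further term, 2 with array weights, 0 within the 14 arrays, 0 by the methods' t-test, and 0 to 5 on leaving out animals, also within females. The count of 1 for AD-like against young adult animals was 0 with the stricter filter, 3 in females, 3 with sex as a further term, 0 within the 14 arrays, and 0 to 3 on leaving out animals. After adjustment the count was 0 in each comparison of groups that kept both AD-like animals. With AD-like F1 left out, a single AD-like animal remained. The differences from old animals were then -2.56 for BACE1 222463_s_at over all animals and -2.34 for APLP1 within females. The count of 5 for the sexes was 3 with the poly-A sets as a term, 3 within the 14 arrays, and 2 (without old M2) to 7 on leaving out animals. The share over all tested probe sets also moved. For old against young adult animals it was 5.89% as reported, 6.95% within the 14 arrays, 10.7% with the beta-actin ratio and 3.5% to 8.49% on leaving out each animal. For AD-like against young adult animals it was 4.34% as reported, 8.31% in females and 8.19% with sex as a further term. For the sexes it was 28.9% as reported, 15.5% with the poly-A term, 16.4% within the 14 arrays and 22.5% to 33.4% on leaving out animals. For AD-like against old animals that share was 4.88% as reported, 5.74% without a filter, 5.61% with array weights, 11% with sex as a further term, 12% in females and 17.4% in females without AD-like F1, the fit with 5 members. APP 214953_s_at was called for AD-like against old animals in that last fit alone, at -1.27, and its difference ranged from -1.27 to 0.38 over the alternatives.

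Animals with the same label number deviated from their group means with correlations from -0.27 to 0.47. Animals with different numbers were not compared in this way, so whether the number marks a pairing was not tested. With the replicate block the counts at an unadjusted p under 0.05 were 0 in healthy aging, 2 for AD-like against old and 3 for AD-like against young adult animals, with 0 after adjustment in each, where 6.75%, 15.4% and 12.7% of all tested probe sets had such a p. The signal filter limits these results too: 10 of 30 member probe sets, with both of NCSTN, did not pass it.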
